A study of Mus musculus with 10 samples.

Results

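The circadian clock genes of the mouse liver were examined in H3.3-deficient and control livers. The set held 10 genes, matched by gene symbol in a table of 55421 genes, and all 10 were found: Arntl, Clock, Npas2, Nr1d1, Nr1d2, Dbp, Per1, Per2, Per3 and Cry1. The measurements were made by poly(A) RNA-seq on 10 whole livers, each from a male mouse. The KO group held 4 livers from floxed mice (H3f3a fl/fl, H3f3b fl/fl, C57BL/6) injected with AAV8 Tbg-Cre, a liver-directed virus that expresses Cre recombinase from the hepatocyte promoter Tbg. The WT Cre controls were 3 livers from wild-type mice given the same Cre virus, and the MCS controls were 3 livers from floxed mice given AAV8 Tbg-MCS, a vector without Cre. Injection was at 6 months and tissue was collected 3 weeks later. For the floxed animals the labels give HIRA fl/fl under genotype, whereas titles and series text name H3f3a and H3f3b, the 2 genes that encode the histone variant H3.3. The groups follow the titles. The Tbg promoter restricts Cre to hepatocytes, so the other cells of the liver were not targeted. The hour at which the livers were taken is not given in the sources used here.

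The clock is a loop of transcription and repression that runs with a period of about a day in almost every cell. ARNTL pairs with CLOCK or NPAS2 and binds E-boxes in the promoters of the Per, Cry, Nr1d and Dbp genes. PER and CRY proteins then inhibit that pair, and the nuclear receptors NR1D1 and NR1D2 repress Arntl and Npas2 through ROR elements, which RORA binds as an activator. DBP is an output factor that binds D-boxes, where NFIL3 acts as a repressor. In the liver these genes follow each other through the day, with Arntl, Npas2 and Clock on one side of the cycle, Nr1d1, Nr1d2, Dbp and the Per genes on the other, and Cry1 late. A whole liver taken at 1 moment is therefore 1 reading of that cycle, and a liver taken at another hour would be expected to move Arntl and Dbp in opposite directions.

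Letter patterns for these elements were searched in the 250 bases before each RefSeq start site (GRCm38.p6), on both strands. Of the 10 clock genes 9 had a promoter entry and Per2 had none, and 8 of 9 partner genes had one. The E-box was searched as CACGTG, its variant as CACGTT, the D-box as TTATGTAA and the ROR element as TNGGTCA. With any base allowed at N the last pattern is loose, and a match to it need not be a ROR element. Among 32851 mouse promoters, 6.02% held an E-box, 3.85% the variant, 0.819% a D-box and 9.19% a match to the ROR pattern. The windows below are shown because they belong to the genes on which the comparisons turn, and each motif is in capitals, with AACGTG and TGACCNA as the same motifs read on the other strand.

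The Ciart promoter (chr3:95882252-95882359, minus strand) held 3 E-boxes, a number reached by 0.0609% of promoters.
Ciart: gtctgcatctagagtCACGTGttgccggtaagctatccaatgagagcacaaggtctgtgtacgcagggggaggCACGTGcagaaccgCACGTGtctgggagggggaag
The Per3 promoter (chr4:151044762-151044885, minus strand) held 2 D-boxes, as did 0.0183% of promoters, and a match to the ROR pattern.
Per3: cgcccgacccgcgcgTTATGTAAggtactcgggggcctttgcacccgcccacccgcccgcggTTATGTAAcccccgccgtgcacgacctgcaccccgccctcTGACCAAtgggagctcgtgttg
The Arntl promoter (chr7:113207250-113207305, plus strand) held 2 matches to the ROR pattern, TTGGTCA and TCGGTCA. Of all promoters 0.557% held 2 such matches, and whether these are ROR elements was not tested.
Arntl: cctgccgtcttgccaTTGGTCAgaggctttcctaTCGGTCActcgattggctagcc
Cry1 (chr10:85185094-85185148, minus strand) carried the E-box variant followed by an E-box.
Cry1: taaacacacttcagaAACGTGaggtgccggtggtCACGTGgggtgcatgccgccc
Per1 (chr11:69098768-69098803, plus strand) carried an E-box 166 bases before its start site.
Per1: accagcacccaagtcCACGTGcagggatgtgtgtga
Nfil3 (chr13:52981040-52981066, minus strand) carried a match to the ROR pattern 12 bases before its start site.
Nfil3: cgcggcgctcggaacTGACCTActaac
Nr1d1 held the E-box variant only, and none of the 4 motifs was found in the searched windows of Dbp, Clock, Npas2 or Nr1d2. The Per1 and Nfil3 windows lie inside the gene spans that GENCODE gives on the same build, whereas the other windows shown lie before them. These are matches of letters, and no binding was measured here.

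The deposited counts summed to between 20862860 and 26096141 per control library and between 14998426 and 23619487 per KO library, with KO 1 the shallowest. Every clock gene had at least 25 reads in every liver. The targeted genes were lower in all 4 KO livers: H3f3a fell from 62.1 ± 1.58 CPM (counts scaled to a common library size; SD, n = 6) to 17.4 ± 1.66 (n = 4), and H3f3b fell from 160 ± 24.0 to 50.5 ± 7.4. CPM means counts per unit of library size (per 1000000 reads), here with TMM factors (trimmed mean of M-values). Gene tests used edgeR's quasi-likelihood fit over 22449 genes, and a gene was called at a Benjamini-Hochberg adjusted p under 0.05. At that threshold 36.3% of all genes tested differed between KO and the 6 controls, with 19.7% higher and 16.6% lower in KO. The higher genes made up 54.3% of the calls, and 72.2% when libraries were scaled by their totals alone, a scaling that shifted the median gene by 0.17 on the log2 scale.

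None of the 10 clock genes passed the test between KO and the 6 controls. The count was 0 with edgeR, 0 with DESeq2 and 0 with limma-voom, and 3 genes (Arntl, Cry1 and Per2) had an unadjusted p under 0.05 with edgeR. All 10 overlapped between KO and controls, whereas 24.5% of all genes tested had KO values entirely above or below the controls. The median log2 fold change of the 10 genes was 0.26, against -0.00 over all genes tested. Against the WT Cre controls alone, 0 were called with edgeR where 28.4% of all genes were, with 1 at an unadjusted p under 0.05, 1 by DESeq2 (Per1) and 0 by limma-voom. Against the MCS controls alone, 0 were called by each of these tools where edgeR called 32.0% of all genes, and 0 had an unadjusted p under 0.05. The comparisons with the 2 kinds of control share the KO livers. Between the 2 kinds of control themselves, 0 clock genes were called by each tool, 0 had an unadjusted p under 0.05, and 0.927% of all genes were called by edgeR.

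**Figure D1:**
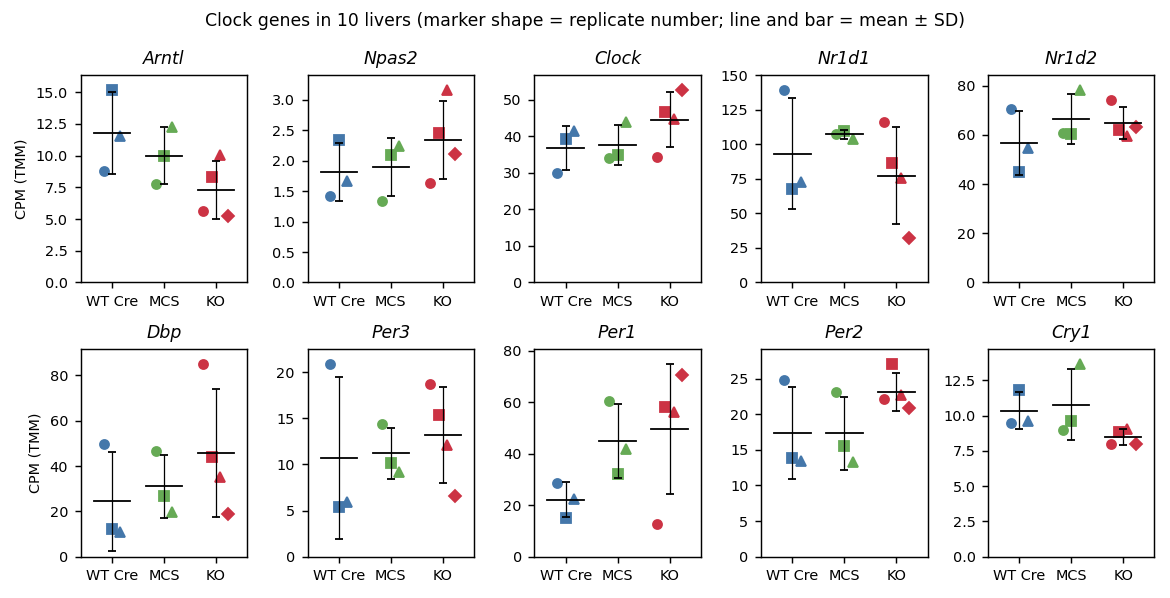
CPM (TMM-scaled, linear axis from 0) of the 10 clock genes in each liver, by group, with marker shape for the replicate number in the labels, a line for the group mean and a bar for the SD. KO and control values overlap for every gene, and Dbp runs from 11.1 to 49.8 CPM among the controls alone.

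Which of these non-calls rest on wide intervals differed from gene to gene. The 95% interval of the KO difference ran from -0.51 to 1.94 (log2) for Dbp and from -0.54 to 1.67 for Per1, so changes of more than 2-fold in these genes lay within what the 10 livers allow. For Nr1d2 it ran from -0.23 to 0.37, and for Clock from -0.02 to 0.54. The widths followed the spread between livers. The SD of log2 CPM within groups was 0.93 for Dbp, 0.82 for Per1, 0.74 for Per3 and 0.61 for Nr1d1, against a median of 0.22 over genes with a mean CPM of at least 1. Dbp varied more within groups than 98.3% of those genes, while Cry1, at 0.20, lay at the 44.7th percentile.

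**Figure D2:**
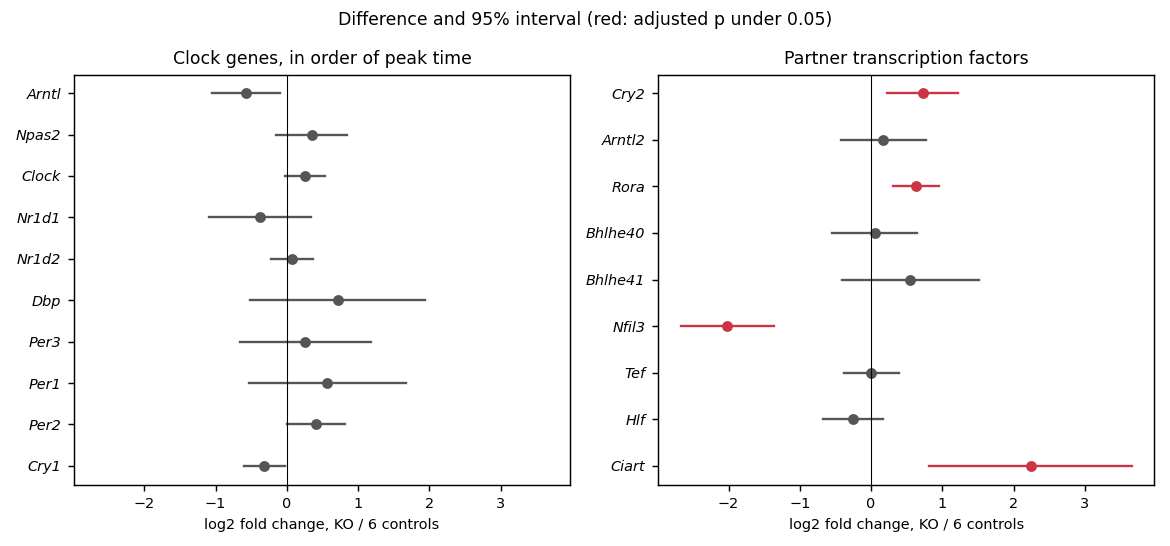
Log2 fold change between the 4 KO and the 6 control livers (points) with 95% intervals (lines) from the edgeR fit, for the clock genes in order of their daily peak and for the 9 partner genes. None of the clock genes is red, the colour of an adjusted p under 0.05, and among the partners Cry2, Rora, Nfil3 and Ciart are.

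The activator Arntl, without which the liver clock does not run, was measured at 8.75, 15.2 and 11.5 CPM in the WT Cre controls and 7.78, 9.96 and 12.2 CPM in the MCS controls. The KO livers held 5.60, 8.30, 10.1 and 5.24 CPM. KO 1 and KO 4 lay below every control and KO 2 and KO 3 lay within the control range. The log2 fold change was -0.57 ± 0.22 (SE) with a 95% interval of -1.05 to -0.10, and edgeR's adjusted p was 0.0589. It was -0.69 against the WT Cre controls (adjusted p = 0.0635) and -0.44 against the MCS controls (adjusted p = 0.215). Arntl passed the threshold when MCS 1 (-0.65, adjusted p = 0.0373) or KO 3 (-0.76, adjusted p = 0.0252) was left out, so the call depended on those livers. Other alternatives weakened it. Over all of them the value ran from -0.76 to -0.26 against the 6 controls and from -0.62 to -0.11 against the MCS controls.

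The partners of ARNTL did not move with it. Clock was 29.9, 39.3 and 41.3 CPM in the WT Cre controls, 34.2, 34.8 and 43.8 CPM in the MCS controls, and 34.3, 46.5, 44.7 and 52.6 CPM in KO. KO 2, KO 3 and KO 4 were above every control. For Clock the log2 fold change was 0.26 ± 0.13 (adjusted p = 0.14), and 0.37 without KO 1 (adjusted p = 0.0235). Npas2, the alternative partner, was the least abundant of the 10 genes, at 1.34 to 2.34 CPM in controls and 1.63 to 3.16 CPM in KO (log2 fold change 0.35 ± 0.23, adjusted p = 0.264). Within groups Npas2 followed Arntl from liver to liver (r = 0.91 over 10 livers after group means were removed), while their group differences had opposite signs.

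Nr1d1, the repressor of Arntl and, per kilobase, the most abundant clock gene in controls, was 139, 67.6 and 72.8 CPM in the WT Cre controls and 108, 110 and 104 CPM in the MCS controls. The KO livers gave 116, 86.7, 75.3 and 31.9 CPM. KO 4 was the lowest of the 10 livers and the other KO livers lay within the control range. The log2 fold change was -0.37 ± 0.32 (adjusted p = 0.408), and -0.11 without KO 4 (adjusted p = 0.751). Its paralog Nr1d2 varied little, at 44.9 to 78.3 CPM in controls and 59.5 to 74.3 CPM in KO, with a log2 fold change of 0.07 ± 0.14 (adjusted p = 0.732). Nr1d1 overlaps Thra on the other strand, and the strand setting of the counting is not given in the sources used here. Thra itself had 215 to 549 counts per liver.

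Dbp, the D-box activator and a direct target of the ARNTL pair, was 49.8, 12.3 and 11.1 CPM in the WT Cre controls and 46.6, 26.8 and 19.7 CPM in the MCS controls. The KO livers held 84.9, 43.8, 35.1 and 19.0 CPM. KO 1 was above every control, and the highest and lowest controls differed 4.48-fold. In each of the 3 groups the liver numbered 1 had the most Dbp and the most Per3, and the labels do not say whether a number marks a shared day or hour. For Dbp the log2 fold change was 0.72 ± 0.54 (adjusted p = 0.346), and 0.24 without KO 1 (adjusted p = 0.776). Dbp overlaps Sphk2 on the other strand, which had 648 to 1659 counts, so the assignment of reads between them is uncertain.

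The Per genes encode the inhibitors of the ARNTL pair, and Per1 is also induced acutely by hormones and other signals. Per1 was 28.6, 15.1 and 22.4 CPM in the WT Cre controls and 60.5, 32.1 and 42.0 CPM in the MCS controls. KO 1 had 12.8 CPM and the other 3 KO livers 58.3, 56.3 and 70.5 CPM. KO 1 was thus the lowest of the 10 livers and KO 4 the highest. The log2 fold change was 0.57 ± 0.49 over all controls (adjusted p = 0.409), 1.17 against the WT Cre controls (adjusted p = 0.137) and 0.15 against the MCS controls (adjusted p = 0.861). Without KO 1 the values were 0.88 over all controls (adjusted p = 0.0975) and 1.48 against the WT Cre controls (adjusted p = 0.00346).

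Per2 was 24.8, 13.9 and 13.5 CPM in the WT Cre controls, 23.1, 15.5 and 13.4 CPM in the MCS controls and 22.1, 27.0, 22.6 and 20.9 CPM in KO. The 4 KO livers lay close together at the level of the highest control of each kind. The log2 fold change was 0.41 ± 0.19 (interval 0.01 to 0.82, adjusted p = 0.105). It passed the threshold without WT Cre 1 (0.54, adjusted p = 0.0238) and without MCS 1 (0.51, adjusted p = 0.0481), which were those highest controls. With all 10 livers it also passed with scaling by library totals (adjusted p = 0.0302) and on FPKM (adjusted p = 0.0326 and 0.0329). These settings moved genes upward in KO in general, with the median gene at 0.17 under totals and at 0.04 and 0.11 on FPKM (log2). The Per2 values under them include that shift. Per3 ranged from 5.34 to 20.8 CPM in controls and from 6.62 to 18.7 CPM in KO (log2 fold change 0.26 ± 0.41, adjusted p = 0.669). Against the WT Cre controls without WT Cre 1, Per3 passed the test at 1.22 (adjusted p = 0.0442), and in the same fit so did Per2 at 0.76 (adjusted p = 0.0273) and Arntl at -0.86 (adjusted p = 0.0454). Per3 lies within the span of Camta1 on the same strand, which had 94 to 161 counts.

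Cry1, the late inhibitor, was 9.50, 11.8 and 9.65 CPM in the WT Cre controls, 9.00, 9.64 and 13.6 CPM in the MCS controls and 8.01, 8.86, 9.02 and 7.95 CPM in KO. KO 1, KO 2 and KO 4 were below every control, and KO 3 was just above the lowest. The log2 fold change was -0.31 ± 0.14 (interval -0.60 to -0.02, adjusted p = 0.0846). On the authors' FPKM values the same difference was 0.02 (log2(FPKM + 1), adjusted p = 0.934), so its direction was not the same on counts and on FPKM. The median gene also moved upward on that FPKM scale, to 0.04.

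Levels were compared between genes per length, with the authors' FPKM. Among the controls the medians ran from Nr1d1 at 31.2 FPKM through Dbp at 14.1, Nr1d2 at 10.6, Per1 at 4.80, Clock at 2.86, Cry1 at 2.53, Arntl at 2.43, Per2 at 1.60 and Per3 at 1.49 to Npas2 at 0.607. Each gene overlapped its neighbour in this order, except that the lowest Per3 value (0.960) exceeded the highest Npas2 value (0.781). In KO the order of medians began with Dbp (30.3 FPKM), Nr1d1 (28.8), Nr1d2 (13.1), Per1 (10.5) and Clock (4.08). Dbp and Nr1d1 thus stood in the opposite order in the 2 groups, and their ranges overlapped within each group.

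Whether the differences had the form of a single shift of the daily cycle was read from their signs. If the genes are placed in a circle by their daily peak (Arntl, Npas2, Clock, Nr1d1, Nr1d2, Dbp, Per3, Per1, Per2, Cry1), livers a little earlier or later in the same cycle differ with 1 sign along a stretch of the circle and the other sign along the rest, which gives 2 changes of sign. The order comes from general knowledge of mouse liver, not from these data. The KO difference changed sign 4 times: Arntl, Nr1d1 and Cry1 were negative while Npas2, Clock, Nr1d2, Dbp, Per3, Per1 and Per2 were positive. The signs were the same against the WT Cre controls, and against the MCS controls Nr1d2 was also negative, again with 4 changes. Since no gene of the 10 passed the test, several of these signs are within the spread of the livers, and that of Cry1 turned positive on FPKM, as did that of Nr1d2 against the MCS controls. The difference between the 2 kinds of control, WT Cre minus MCS, also changed sign 4 times. That number was therefore not particular to KO.

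The same signs were read for single livers. WT Cre 1 was above the mean of the WT Cre controls for Nr1d1, Nr1d2, Dbp, Per3, Per1 and Per2 and below it for Arntl, Npas2, Clock and Cry1. That pattern has 2 changes of sign. WT Cre 2 had the opposite signs, also with 2 changes, but the deviations of the 3 WT Cre livers sum to 0 for each gene, so opposite signs in the other WT Cre livers follow largely from the centring. The deviations of WT Cre 1 reached 1.39 (log2) for Dbp and 1.25 for Per3 on one arm and -0.39 for Arntl on the other. WT Cre 3 and the 3 MCS controls had 4 changes each, some of them through deviations close to 0. Measured from another baseline, the mean of the 6 controls, KO 1, KO 2 and KO 3 had 4 changes and KO 4 had 6.

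**Figure D3:**
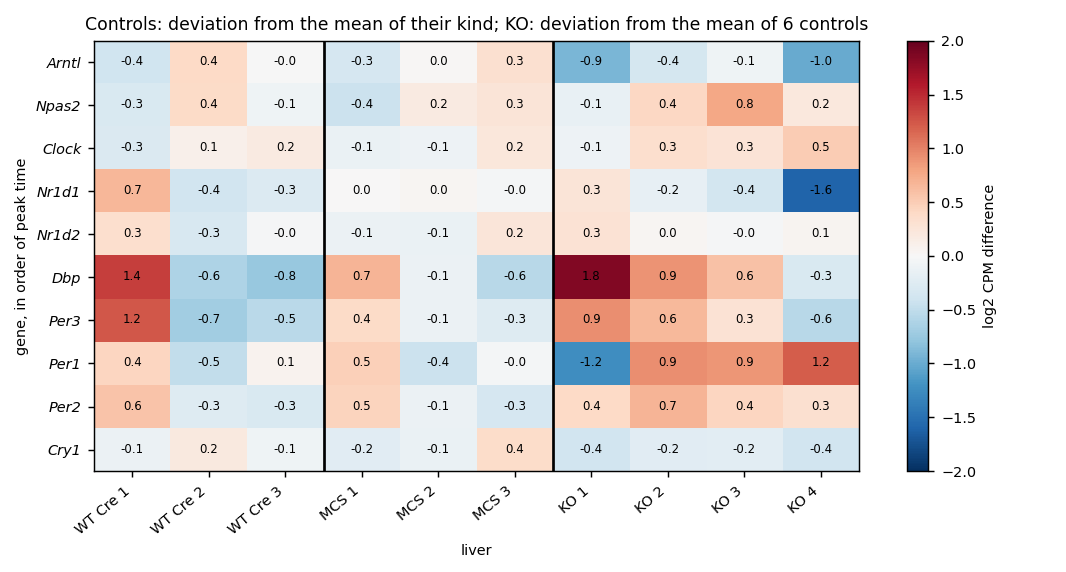
Log2 CPM of each clock gene in each liver, as the difference from the mean of its own kind of control (control livers) or from the mean of the 6 controls (KO livers), with genes in order of their daily peak. Deviations sum to 0 within each kind of control, so opposite signs among its livers follow largely from the centring. KO 4 combines -1.01 for Arntl and -1.61 for Nr1d1 with 1.21 for Per1.

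KO 4 stood apart in this respect. Arntl was 1.01 below and its repressor Nr1d1 was 1.61 below the control mean (log2), and Per1 was 1.21 above it. In KO 1 the Per genes parted: Dbp was 1.85 above and Per3 0.93 above the control mean, while Per1 was 1.25 below it. KO 2 and KO 3 shared all signs but that of Nr1d2, which lay close to the control mean in both (0.03 and -0.03). These 2 livers were also the most alike KO pair over all genes (chi-square per degree of freedom between their counts, 10.3). KO 1 and KO 4 were the least alike (96.7), so their departures were not confined to the clock genes.

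The same question was asked with the main axis of variation among the 6 controls, a measure chosen after the counts were seen. After the mean of each kind of control was removed, a single axis held 87.0% of the squared deviations of the 10 genes. With only 6 livers and the means of both kinds removed, few independent directions remained, which favours a high share. Its weights had the signs of WT Cre 1: Dbp, Per3, Per2, Nr1d1, Per1 and Nr1d2 on one side and Arntl, Npas2, Clock and Cry1 on the other. The KO difference pointed partly along that axis, with a cosine of 0.60, and 35.9% of its squared log2 fold changes lay on it. The axis is the main direction of spread between these controls, with its largest weights on Dbp (0.63) and Per3 (0.53). A difference of means that reflects only that spread would also tend to lie along it. No reference value was computed, so no conclusion about a shift is drawn from the cosine or the share. The share was 39.2% against the WT Cre controls and 22.9% against the MCS controls. Npas2, Clock and Nr1d1 had the sign opposite to the axis, and the other 7 genes had its sign.

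**Figure D4:**
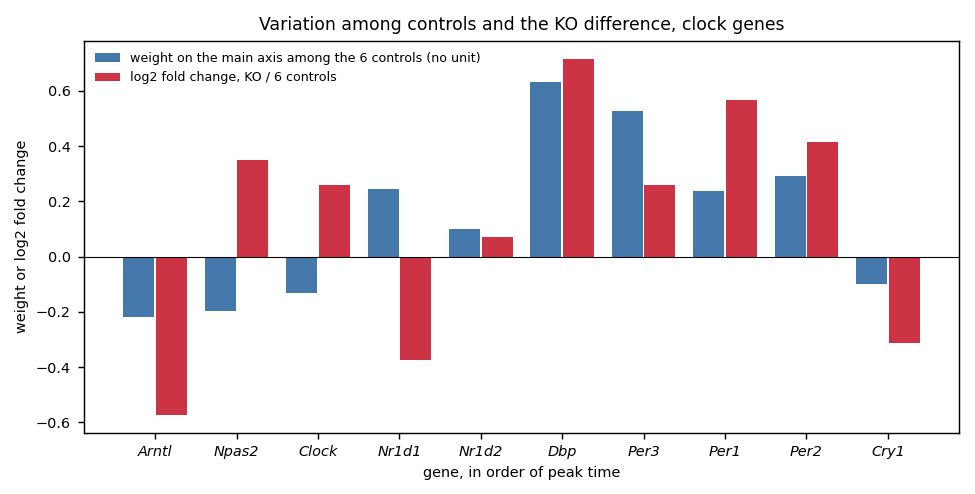
Weight of each clock gene on the main axis of variation among the 6 control livers (blue, no unit) beside its log2 fold change between KO and the 6 controls (red), on a linear axis. Dbp, Per3, Per1, Per2, Nr1d2, Arntl and Cry1 point the same way in both, and Npas2, Clock and Nr1d1 point opposite ways. The fold change of Cry1 turns positive, at 0.02, on log2(FPKM + 1).

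Scores along the control axis overlapped between the groups. The axis was drawn as the direction of greatest spread among these same controls, which favours such overlap, so no conclusion is drawn from it. The WT Cre controls scored 1.72, -1.74 and -1.38, the MCS controls 1.53, 0.18 and -0.31, and the KO livers 1.84, 1.26, 0.61 and -0.34 (log2 units). All 4 KO scores were within the control range or just above it. Among the 4 KO livers the main axis held 80.1% of the deviations, and its cosine with the control axis was 0.52. Its largest weight was that of Per1 (-0.63), in which KO 1 lay far below the other KO livers. No cosine between the 2 kinds of control was computed, so it is not known whether 0.52 is particular to KO.

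Ratios within a liver, which do not depend on scaling between libraries, were computed for 7 gene pairs chosen after the counts were seen. The Nr1d1 count divided by the Dbp count was 2.80, 5.51 and 6.55 in the WT Cre controls, 2.31, 4.09 and 5.27 in the MCS controls and 1.36, 1.98, 2.14 and 1.67 in KO. The 4 KO ratios were below the 6 control ratios, although neither gene alone was called. How often the ratios of other gene pairs separate was not computed, and 24.5% of single genes tested separated. The uncertain assignment of reads between Dbp and Sphk2 also bears on this ratio. The Dbp to Arntl ratio ran from 0.809 to 5.99 in controls and from 3.49 to 15.2 in KO, and the ranges overlapped. Both ratios varied among the controls, and how far either follows the hour was not tested. The ratios of Per3 to Arntl, Nr1d1 to Arntl and Per1 to Per2 overlapped as well. A ratio shows that its genes differed unequally and not which of them did.

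The other transcription factors of the loop, a list of 9, held 4 called genes between KO and the 6 controls, with Cry2, Rora and Ciart higher and Nfil3 lower, a share near the 36.3% called among all genes. Against the WT Cre controls 4 were called, and against the MCS controls 2 (Rora and Nfil3). Nfil3, the D-box repressor that opposes DBP, was 27.8, 30.9 and 40.2 CPM in the WT Cre controls, 23.7, 25.4 and 63.7 CPM in the MCS controls and 11.1, 8.82, 8.01 and 7.00 CPM in KO. Every KO liver was below every control. Nfil3 fell by 2.02 ± 0.30 (log2, SE; adjusted p = 0.000463 with edgeR), and it was also called against each kind of control alone, at -1.92 (adjusted p = 0.00295) and -2.11 (adjusted p = 0.00151). The call held in all 18 alternatives run, between -2.15 and -1.52.

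Ciart, a repressor of the ARNTL pair whose own promoter held the 3 E-boxes shown above, was 5.79, 1.47 and 1.03 CPM in the WT Cre controls and 14.9, 5.13 and 8.05 CPM in the MCS controls. The KO livers had 18.1, 34.2, 34.0 and 27.8 CPM, all above every control. It rose by 2.24 ± 0.63 (log2, adjusted p = 0.0215), a call lost at adjusted p = 0.0504 without KO 2. Against the WT Cre controls the difference was 3.37 (adjusted p = 0.00592), and against the MCS controls it was 1.61 (adjusted p = 0.0654). The Ciart count divided by the Arntl count was 0.0897 to 1.91 in controls and 3.23 to 5.30 in KO, with no overlap. Ciart alone already had no overlap, so this ratio says little about Arntl.

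Rora, an activator at ROR elements, was 48.2 to 73.3 CPM in controls and 71.6, 83.8, 82.1 and 121 CPM in KO, so that only KO 1 reached into the control range. It rose by 0.63 ± 0.15 (adjusted p = 0.00591), and was called against both kinds of control, at 0.61 (adjusted p = 0.0304) and 0.65 (adjusted p = 0.0207). Cry2, the second cryptochrome, was 22.5 to 38.4 CPM in controls and 33.3, 39.5, 41.0 and 74.4 CPM in KO, and rose by 0.72 ± 0.23 (adjusted p = 0.0273). That call was lost without KO 4 (0.41, adjusted p = 0.0731), WT Cre 2 (adjusted p = 0.0543), WT Cre 3 (adjusted p = 0.0529) or MCS 2 (adjusted p = 0.0539), and Cry2 was not called against either kind of control alone. Cry1 and Cry2 thus had opposite signs on TMM-scaled counts, with only Cry2 past the threshold.

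The remaining partners were not called over all controls. The D-box activators Tef (0.00 ± 0.18, adjusted p = 0.996) and Hlf (-0.25 ± 0.19, adjusted p = 0.343) showed no difference beyond the spread, unlike their antagonist Nfil3. Dbp counts divided by Nfil3 counts were 0.277 to 1.97 in controls and 2.72 to 7.66 in KO, without overlap. Nfil3 alone already had no overlap, so this ratio says little about Dbp. The E-box repressor Bhlhe40 had 0.05 ± 0.27 (adjusted p = 0.904) and Arntl2, the paralog of Arntl, 0.17 ± 0.27 (adjusted p = 0.667). Bhlhe41 had 0.55 ± 0.44 over all controls (adjusted p = 0.364), and it rose against the WT Cre controls (1.33, adjusted p = 0.0332) with 0.04 against the MCS controls (adjusted p = 0.956). No partner was called between the 2 kinds of control by edgeR, with 2 at an unadjusted p under 0.05, so the difference of Ciart and Bhlhe41 from one kind of control to the other did not pass its own test.

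**Figure D5:**
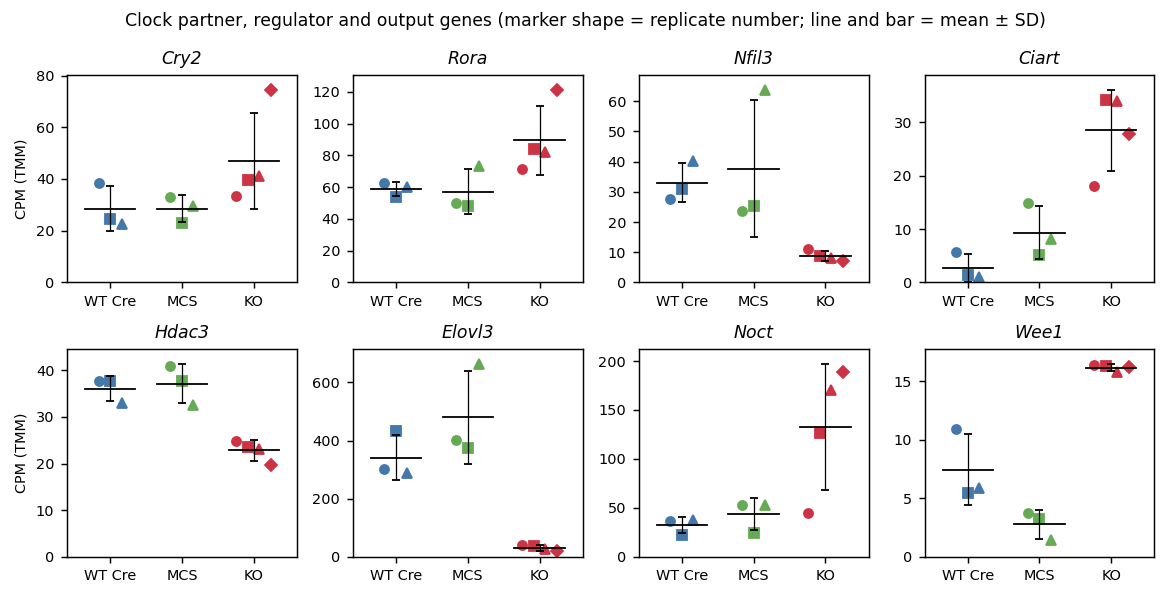
CPM (TMM-scaled, linear axes from 0) of 4 partner genes, the regulator Hdac3 and 3 liver output genes in each liver, with marker shape for the replicate number and a line and bar for the group mean and SD. All KO values lie below the controls for Nfil3, Hdac3 and Elovl3 and above them for Ciart and Wee1, while Rora, Cry2 and Noct overlap.

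Enzymes and cofactors that act on the clock proteins were called in 3 of 13 cases, against 36.3% of all genes. Csnk1e, a kinase that marks PER proteins for turnover, rose by 0.48 ± 0.13 (adjusted p = 0.0137), from 6.90 ± 0.98 CPM (n = 6) to 9.61 ± 1.12 CPM (n = 4), a call lost without KO 2 (adjusted p = 0.0569). Hdac3, the histone deacetylase through which NR1D1 represses its targets, fell by 0.68 ± 0.10 (adjusted p = 0.000194). It was 32.6 to 41.0 CPM in controls and 24.9, 23.5, 23.2 and 19.7 CPM in KO, without overlap. Fbxl21, a ubiquitin ligase subunit for cryptochromes, fell by 1.03 ± 0.25 (adjusted p = 0.00687), at 49 to 155 counts per control liver and 37 to 70 per KO liver. On CPM it was 2.74 to 6.15 in controls and 2.48, 2.77, 2.87 and 1.42 in KO. The groups overlapped, with MCS 3 (2.74 CPM) below KO 2 and KO 3.

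Liver genes known to be driven by the clock were called in 10 of 14 cases, with 6 higher and 4 lower in KO, where 36.3% of all genes were called, 19.7% higher and 16.6% lower. With edgeR's own filter on low counts, 7520 of 16053 genes were called. The list was chosen with earlier results of these data known, so its count is not read as enrichment. Elovl3, a fatty acid elongase, was 290 to 663 CPM in controls and 40.6, 35.6, 27.1 and 19.2 CPM in KO, and fell by 3.75 ± 0.30 (adjusted p = 6.54e-06). Alas1, which starts heme synthesis, was 312 to 986 CPM in controls and 101 to 178 CPM in KO, and fell by 1.94 ± 0.31 (adjusted p = 0.000643). Both genes were below every control in all 4 KO livers.

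Noct, which encodes a phosphatase of NADP cofactors, was 22.6 to 53.3 CPM in controls and 45.2, 126, 170 and 189 CPM in KO, and rose by 1.81 ± 0.39 (adjusted p = 0.0057). Wee1, a kinase that holds back mitosis and carries E-box control in liver, was 1.40 to 10.9 CPM in controls and 16.4, 16.3, 15.8 and 16.2 CPM in KO. The highest KO value was 1.04 times the lowest, against a 7.82-fold range among controls. Wee1 rose by 1.65 ± 0.41 (adjusted p = 0.0105). Cdkn1a, a cell cycle inhibitor that is also a target of p53, rose by 1.41 ± 0.45 (adjusted p = 0.0363), from 18.4 to 118 CPM in controls to 131 to 161 CPM in KO. The call of Cdkn1a was lost without any KO liver, WT Cre 1, WT Cre 3 or MCS 1 (adjusted p from 0.0552 to 0.0824). Several of these genes are also controlled by other liver regulators, and the part of the clock in their differences was not tested.

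Genes that report on timing cues were counted as lists, beside 19.7% of all genes higher and 16.6% lower in KO. Of 8 fasting genes 6 were lower in KO and 0 higher, of 7 feeding genes 1 was higher and 1 lower, of 7 glucocorticoid targets 1 was lower (Tat), and of 8 temperature-responsive genes 1 was higher (Hspa1a, 3.85 ± 0.66, adjusted p = 0.00148). Some of these counts turned with the kind of control. Of the glucocorticoid targets 3 were lower against the MCS controls, while 1 was higher (Fkbp5) and 0 lower against the WT Cre controls, and 5 of 7 had an unadjusted p under 0.05 between the 2 kinds of control, with Zbtb16 called. Of the fasting genes 5 were lower and 1 higher against each kind of control (Angptl4 higher against WT Cre, Pdk4 against MCS). These genes are named after their values were seen. The mixture of cells also moved with the groups. Of 10 hepatocyte markers 8 were lower in KO (3 against the WT Cre controls alone and 9 against the MCS controls alone), with a summed level of 103228 to 148112 CPM in controls and 77929 to 92098 CPM in KO. Of 8 Kupffer cell markers 8 were higher (191 to 369 against 448 to 977 CPM), of 8 stellate cell markers 7 (209 to 269 against 477 to 751 CPM) and of 8 lymphoid markers 6 (36.1 to 68.2 against 102 to 153 CPM). Endothelial markers were higher in 1 of 8 (210 to 271 against 227 to 412 CPM) and cholangiocyte markers in 1 of 7 tested (50.0 to 80.6 against 71.1 to 88.2 CPM). No marker was at 0 in all livers. Since whole livers were measured, fewer cells of a type and less RNA per cell cannot be told apart, and the part of the cell mixture in the clock gene values was not tested.

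The genes that followed Arntl and Dbp most closely from liver to liver within groups were listed by Pearson's r of log2 CPM over the 10 livers after group means were removed, as a description among 13209 other genes. For Arntl the highest were Pign (0.97), Prim1 (0.94), Grk5, Pter and Rnf144b, and the lowest were Rassf3 (-0.96), Cdk18 (-0.94), Ubox5, Castor1 and E4f1. Npas2 ranked 8 from the top and Cry1 ranked 132 (r = 0.77). For Dbp the highest were Phf19, Ppp1r1b and Per3 (each 0.97), then D2hgdh and Nat8f4, and the lowest were Nrf1 (-0.95), Med7 (-0.94), Clock (-0.93), C1qtnf7 and Prc1. Dbp therefore ran with Per3, Tef (r = 0.91), Bhlhe40 (r = 0.88) and Nr1d1 (r = 0.86) and against Clock, while Per1 (r = -0.27) and Arntl (r = -0.45) followed it less closely. With 10 livers and so many genes, high values of r arise among unrelated genes, and the livers share depth and cell mixture.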

How the data were processed

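Poly(A) libraries (directional kit) were read from 10 mouse livers. The authors trimmed reads, aligned them to mm10 with STAR and, per the paper's methods, counted them with HOMER, whereas the submitters' notes name STAR, HTSeq and Cufflinks. The strand setting is not given in the sources used here. The deposited gene counts are raw read counts, 14998426 to 26096141 per library, and the deposited FPKM values served only for levels between genes and as an alternative (blank cells read as 0, pseudocounts 1 and 0.1). The authors' control columns carry numbers 1 to 6, matched to library numbers in the labels. Comparisons of KO with all 6 controls do not depend on that match.

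Genes with at least 10 summed counts (22449 genes) were tested with edgeR 4.0.16 (R 4.3.3, TMM, robust quasi-likelihood, two-sided), 2 groups for KO against all controls and 3 groups otherwise. Alternatives were DESeq2 1.42.0, limma 3.58.1 (voom, and trend on FPKM), scaling by totals, other filters, a replicate block and each liver left out. Log2 CPM for spread and likeness used a prior count of 2. The code was tested on simulated data.

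Named were all clock and partner genes, called regulator and output genes (at most 5 per list), the targeted genes and the 5 nearest genes at each end for Arntl and Dbp. An item of the partner list is not reported here. The members and lists were chosen with earlier results of these data known. Whether livers came from separate litters is not stated, so p-values measure the spread between these livers.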

Additional observations from a re-analysis of the deposited data

Results flagged for a closer look

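Bhlhe40, an E-box repressor of the loop, had 1 control liver far from the others: WT Cre 1 held 148 CPM, whereas the other 5 controls held 55.9 to 75.2 CPM. The gap to the nearest control was 0.790 of the whole range, above the 95% limit that Dixon's test sets for 6 samples. WT Cre 1 was also the control with the most Dbp, Per3 and Nr1d1. Of 38 groups of 4 or 6 values checked, 1 was singled out, and chance alone singles out about 1 in 20.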

How the results depend on the processing

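The count of clock genes past the threshold, 0 between KO and all controls, was 2 with scaling by library totals (Per2 and Clock), 1 on log2(FPKM + 1) and 1 on log2(FPKM + 0.1) (Per2), 0 to 2 with 1 liver left out, and 0 with DESeq2, limma-voom and either other filter. Against the WT Cre controls it was 1 with DESeq2 (Per1) and 0 to 3 with 1 liver left out, and against the MCS controls it was 1 with scaling by totals (Clock). Between the 2 kinds of control it was 0 throughout. The 17 partner, regulator and output genes called numbered 13 to 20 over the alternatives. Scaling by totals shifted the median gene by 0.17 (log2) over all controls and by 0.25 against the MCS controls. The Clock value of 0.45 and the Per2 value under that scaling include this shift. On FPKM (pseudocounts 1 and 0.1) the median gene was at 0.04 and 0.11 over all controls. Against the MCS controls it was at 0.07 and 0.17. The FPKM values of Per2, Cry1 and Nr1d2 include that shift.

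Replicate numbers are shared by the groups, but livers with the same number did not deviate together over all genes (r from -0.04 to 0.11, with 1 of 9 above 0.1). Not every liver correlated best with its own number, and the labels state no pairing, so the replicate block is given as an alternative only. A check over all genes cannot tell whether the numbers mark a shared hour for the clock genes. With the replicate block, 2 clock genes passed over all controls (Per2 at 0.53 and Dbp at 1.06), 2 against the WT Cre controls (Dbp at 1.38 and Arntl at -0.57) and 1 against the MCS controls (Dbp at 0.80). Ciart (adjusted p = 0.0845), Cry2 (0.45, adjusted p = 0.0512) and Cdkn1a (adjusted p = 0.0668) were not called with the block. Without a filter on low counts Cry2 (adjusted p = 0.0658) and Cdkn1a (adjusted p = 0.0713) were not called, nor was Fbxl21 on FPKM (adjusted p = 0.0962 and 0.0987).

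Direction changed only for values that were not called, among those compared. On FPKM the log2 difference of Cry1 became 0.019 and 0.025 with pseudocounts 1 and 0.1 over all controls and 0.063 and 0.083 against the MCS controls, and that of Nr1d2 against the MCS controls became 0.22 and 0.23 (0.21 with scaling by totals). Per1 against the MCS controls became -0.029 with limma-voom and -0.070 with the block, and Nr1d1 against the WT Cre controls 0.029 with the block. With 1 liver left out, values crossed 0 for Per1 (-0.076 to 0.46) and Nr1d2 (-0.11 to 0.092) against the MCS controls, for Per3 (-0.028 to 1.22) and Nr1d1 (-0.53 to 0.14) against the WT Cre controls, and for Nr1d2 (-0.0066 to 0.15), Bhlhe40 (-0.10 to 0.30) and Tef (-0.12 to 0.10) over all controls. The cause of these changes was not tested. The clock genes had 25 to 3343 reads per liver, and the spread between livers limited Dbp, Per1 and Per3. Npas2 had the fewest reads, 25 to 75 per liver, and the part of counting noise in its spread was not tested.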
